A study of Psychotria gabriellae and Psychotria semperflorens with 6 samples.

Results

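The steady contigs are 200 assembled leaf transcripts whose abundance varied least among 6 wild shrubs of 2 species of Psychotria, a genus of the coffee family, in New Caledonia. They were chosen by their own read counts. Counts were expressed as CPM, reads scaled to a common library size with TMM factors computed on all 60899 contigs. TMM assumes that most contigs do not differ between libraries and sets 1 factor per library. Of the 9060 contigs that averaged 20 CPM or more and did not rank among the 200 most abundant in every library, the 200 with the smallest standard deviation (SD) of log2(CPM + 0.5) over the 6 libraries were kept. The remaining 8860 contigs of the same abundance class serve below as the other contigs.

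The plants were 3 Psychotria gabriellae, labelled a nickel hyperaccumulator, and 3 Psychotria semperflorens, labelled a non-accumulator. Plants of both species grew in rain forest on serpentine soil, a substrate known for its high nickel content. Leaves of 1 plant gave 1 library of polyA RNA. At Monts Koghi, P. gabriellae plant 1 and P. semperflorens plant 3 were taken on October 30, and P. gabriellae plant 3 and P. semperflorens plant 1 on November 4. At Rivière Blanche, plant 2 of either species was taken on March 10 of the next year. Reads of both species were counted on contigs assembled from P. gabriellae, and a part of sequence differences between the species in the counts was not tested.

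Transcripts of even abundance have a practical use. In quantitative PCR, a gene of interest is measured against reference transcripts that should not vary with tissue, treatment or genotype. In Arabidopsis, large surveys found even expression for transcripts of routine cell functions, such as subunits of protein phosphatase 2A and ubiquitin-conjugating enzymes, and textbook references such as actin genes to be less even. Comparing a hyperaccumulator with a relative that does not accumulate metal needs such a baseline between species and in plants taken from the field. The files pair no contig with a gene name or a sequence, so contigs are given by identifier, no function is assigned to them, and the labelled tissue was not checked against leaf marker genes.

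Read totals lay between 29905486 in P. gabriellae plant 3 and 62064930 in plant 2. The lowest count of any steady contig in any library was 624 reads, and all 200 passed the filter on low counts of the tests below. The SD due to counting alone was between 0.0115 and 0.0464 on the log2 scale for the steady contigs, with a median of 0.0345. Together the 200 took 1.06%, 1.06% and 1.24% of the reads of P. gabriellae plants 1, 2 and 3 and 0.995%, 0.947% and 1.12% of those of P. semperflorens plants 1, 2 and 3. On the scaled axis their summed abundance was 10443 to 10920 CPM, a 1.05-fold range. The unscaled share ranged 1.31-fold.

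The steady contigs were moderately abundant transcripts. Their mean abundance ran from 20.2 to 326 CPM with a median of 36.2 CPM, against 43.9 CPM for the other contigs. Between 20 and 50 CPM they were 131 of 5123 contigs, or 2.56%. From 50 to 100 CPM they were 47 of 2308, or 2.04%, from 100 to 200 CPM 17 of 1082, or 1.57%, and above 200 CPM 5 of 547, or 0.914%. The 87 contigs left out of the choice because they ranked 200 or better in every library had a median SD of 0.516 and a smallest of 0.179. The other contigs above 200 CPM had a median SD of 0.574. None of these 87 would have entered the list.

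**Figure D1:**
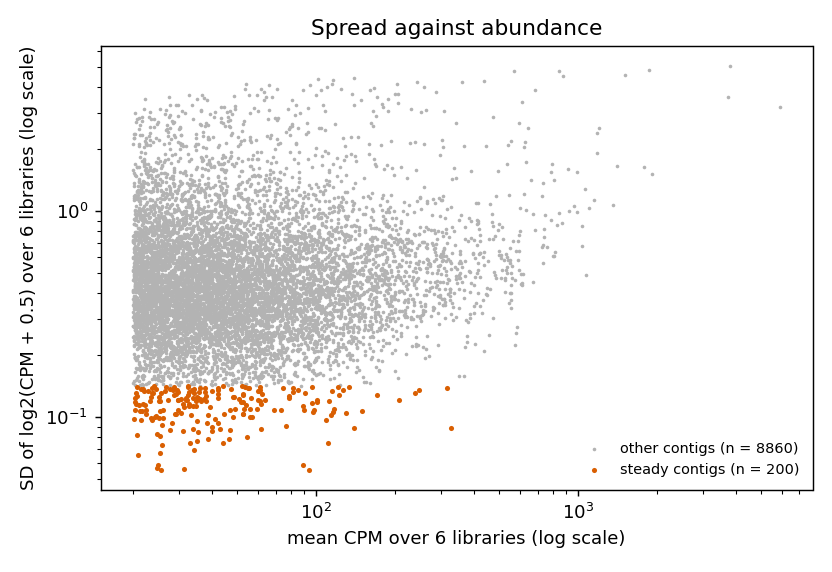
Mean CPM over the 6 libraries (horizontal, log scale) against the SD of log2(CPM + 0.5) over the 6 libraries (vertical, log scale) for 9060 contigs, with the 200 steady contigs in orange. The orange points form the lower edge of 1 continuous cloud, below an SD of 0.142, and thin out to the right, with 5 of them above 200 CPM.

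The SD that chose the contigs was 0.0555 to 0.142, with a median of 0.119, where the other contigs had a median of 0.439. The limit was not a gap in the data. The last contig inside, Pgab_v2_contig_17264, had an SD of 0.14227, and the first outside, Pgab_v2_contig_7603, had 0.14233. In P. gabriellae plants 1 to 3 Pgab_v2_contig_17264 was at 30.9, 38.7 and 33.2 CPM, and in P. semperflorens plants 1 to 3 at 31.8, 30.2 and 29.2 CPM. Pgab_v2_contig_7603 was at 30.5, 38.5 and 32.7 CPM and at 36.7, 38.7 and 38.2 CPM in the same order. Both had their highest P. gabriellae value in plant 2, and they differ mainly in the level of P. semperflorens.

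For each steady contig the highest library was 1.10 to 1.36 times the lowest, with a median of 1.24. It was under 1.2 times for 49 of the 200. Among the other contigs the median was 2.26-fold, and 780 of 8860, or 8.80%, stayed under 1.5-fold. Even so, the libraries differed by more than counting error. With 1 library per plant, differences between plants and from library preparation cannot be told apart. The SD was 3.46 times the counting SD at the median, and under 2 times for 11 of the 200 steady contigs and for 0 of the other contigs. The rule left the larger SDs to the other contigs, so nothing is read from their 0.

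The contig with the smallest SD was Pgab_v2_contig_10518. It stood at 25.03, 24.8 and 27.0 CPM in P. gabriellae plants 1 to 3 and at 26.5, 25.2 and 24.6 CPM in P. semperflorens plants 1 to 3. The species overlapped fully, and its SD of 0.0555 was 1.36 times the counting SD, close to what these read numbers allow. Pgab_v2_contig_9791 was at 89.3, 99.1 and 96.1 CPM and at 93.0, 90.2 and 93.4 CPM. Its P. gabriellae values enclosed those of P. semperflorens. At a mean of 93.5 CPM its counting SD was smaller, and its SD of 0.0557 was 2.61 times the counting SD.

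Pgab_v2_contig_940 was at 30.3, 30.3 and 30.9 CPM in P. gabriellae and at 33.4, 30.7 and 32.3 CPM in P. semperflorens. The P. gabriellae plants were nearly level, and the lowest P. semperflorens plant fell among them. Pgab_v2_contig_8510 was at 24.3, 25.3 and 25.6 CPM and at 23.1, 24.7 and 25.7 CPM, and Pgab_v2_contig_10514 at 24.4, 24.8 and 24.9 CPM and at 25.8, 23.5 and 26.4 CPM. In both, the P. semperflorens plants held the highest and the lowest library. These 5 contigs had coefficients of variation of 3.91% to 4.15% over the 6 plants.

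At the upper end of abundance, Pgab_v2_contig_2246 was at 336, 310 and 323 CPM in P. gabriellae and at 325, 361 and 304 CPM in P. semperflorens. Both extremes came from P. semperflorens, plants 2 and 3. Pgab_v2_contig_3258 was at 349, 327 and 267 CPM and at 327, 293 and 326 CPM, with P. gabriellae plants at both extremes. Its SD was 11.8 times the counting SD, the highest ratio among the 200. The 2 scarcest were Pgab_v2_contig_16764, at 20.6, 19.1 and 19.4 CPM and at 22.4, 21.2 and 18.7 CPM, and Pgab_v2_contig_11278, at 22.3, 22.3 and 17.7 CPM and at 20.02, 19.96 and 19.4 CPM. The latter was lowest in P. gabriellae plant 3, the library with the fewest reads, where it held 624.

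The comparison of spread within and between species asked whether the small spread was shared by both. Within P. gabriellae the median SD of the steady contigs was 0.112, against 0.405 for the other contigs. Within P. semperflorens it was 0.103 against 0.338. The size of the difference between the species' means was 0.0651 against 0.330, 5.07 times smaller for the steady contigs, and the difference between the sites' means was 0.0882 against 0.354, or 4.01 times smaller. The SDs within the species were 3.60 and 3.28 times smaller. All these values follow from the choice and are a description. In bulk leaf RNA, fewer cells of a type and less RNA per cell cannot be told apart, so an even level is even per unit of leaf RNA.

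The rule set the same SD limit at every abundance, so it fixed the direction of the contrast with the other contigs in each range. Between 20 and 50 CPM the median SD over 6 libraries was 0.116 for steady and 0.432 for other contigs, and between 50 and 100 CPM 0.120 and 0.411. From 100 to 200 CPM it was 0.119 and 0.465, and above 200 CPM 0.131 and 0.574. With the same limit throughout, the steady contigs were about as even in each range. The other contigs were least even above 200 CPM. The size of the species difference was 0.0610, 0.0789, 0.0862 and 0.0431 for steady contigs in these 4 ranges and 0.327, 0.300, 0.345 and 0.459 for the others.

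Pairs of libraries describe how the spread divides, in values that the rule used. Its limit on the SD bounds the difference of any pair, within and between species alike. For the steady contigs the median absolute log2 difference was 0.118 to 0.142 for the 3 pairs within P. gabriellae, 0.103 to 0.129 for the 3 within P. semperflorens and 0.103 to 0.135 for the 9 pairs between species. The ranges within and between species overlapped. For the other contigs these ranges were 0.396 to 0.573, 0.348 to 0.440 and 0.391 to 0.565. There the pairs within P. semperflorens lay lowest, although they overlapped with the rest. The species accounted for 10.6% of the sum of squares of the median steady contig and for 19.2% of that of the median other contig. Any split of the plants into groups takes some share, and these shares were not tested.

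**Figure D2:**
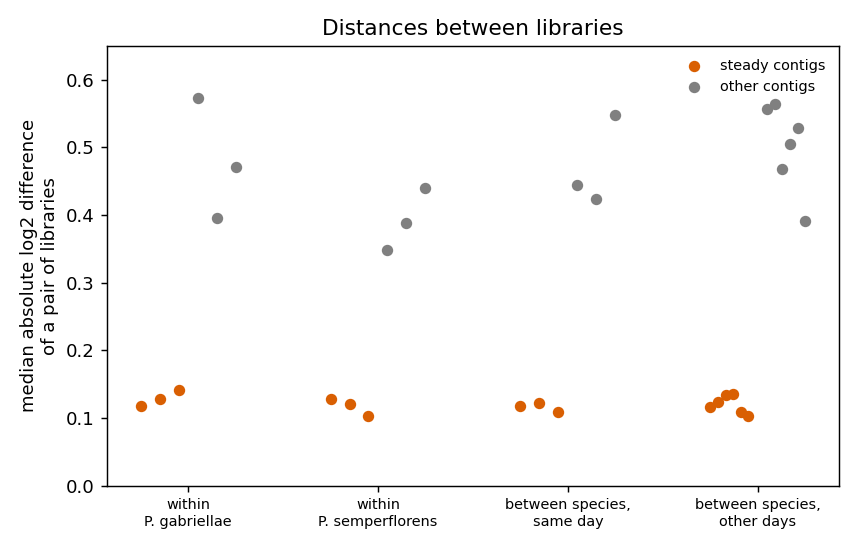
Median absolute log2 difference in CPM for each of the 15 pairs of libraries, by kind of pair, for the 200 steady contigs (orange) and the 8860 other contigs (grey). The orange points lie between 0.103 and 0.142 in all 4 kinds of pair, and the grey points between 0.348 and 0.573.

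The species were also compared on each collection day. The steady contigs were higher in P. gabriellae for 102 and lower for 98 on October 30, higher for 78 and lower for 122 on November 4, and higher for 123 and lower for 77 on March 10. The majority therefore changed side between days under the rule's scaling. A library's factor moves all its contigs together, and these majorities depended on it. On November 4, P. gabriellae plant 3 and P. semperflorens plant 1 had median deviations of the steady contigs of -0.018 and 0.026. With TMM on contigs of at least 20 CPM these were 0.12 and -0.081. The median log2 differences were 0.0092, -0.047 and 0.052, against 0.00034, -0.33 and -0.038 for the other contigs. In 48 steady contigs, 24% of the 200, all 3 days had the same sign, and in 35.8% of the other contigs. The rule used these values and its limit on the SD limits the species differences, so nothing is read from this contrast.

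No steady contig was called different between the species (edgeR quasi-likelihood test, 0 of 200 at an adjusted p under 0.05, 0 at an unadjusted p under 0.05). Over all 53478 contigs tested, 0.151% were called (0 contigs with collection day as a block) and 12.4% had an unadjusted p under 0.05. The rule used this contrast, so nothing is read from the 0. DESeq2 also called 0 of the 200, and 2143 of all 53478 contigs, or 4.01%. The log2 fold changes of P. gabriellae over P. semperflorens ran from -0.19 to 0.26, with a median size of 0.071, against 0.33 for the other contigs and 0.50 over all contigs tested. Their standard errors were 0.22 to 0.27. The fitted error was thus about as large as the largest fold change, in a fit that draws each contig's spread toward that of contigs of like abundance.

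In 17 steady contigs, or 8.5%, the 3 plants of one species all lay above or all below those of the other. Of these, 8 were higher and 9 lower in P. gabriellae. Over all contigs tested the groups did not overlap in 19.7%, with 9.87% higher and 9.87% lower, and among the other contigs in 16.9%. The rule used these values, and its limit on the SD also limits the size of any species difference. Pgab_v2_contig_17231 had the largest log2 fold change in favour of P. gabriellae, with 29.3, 30.4 and 30.3 CPM against 24.0, 25.8 and 26.7 CPM in P. semperflorens. The fitted difference was 0.26 on the log2 scale (SE 0.22, edgeR adjusted p = 0.676). Pgab_v2_contig_5847 was at 25.99, 24.7 and 26.4 CPM against 20.8, 22.9 and 22.2 CPM, or 0.25 on the same scale (SE 0.23, edgeR adjusted p = 0.692).

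In the other direction Pgab_v2_contig_11691 was at 77.0, 74.4 and 75.4 CPM in P. gabriellae and at 88.7, 94.5 and 80.7 CPM in P. semperflorens. The fitted difference was -0.19 (SE 0.23, edgeR adjusted p = 0.770). Pgab_v2_contig_1964 was at 54.9, 52.9 and 49.4 CPM against 62.8, 60.0 and 57.4 CPM, or -0.17 (SE 0.22, edgeR adjusted p = 0.797). In all 4 contigs, named for their extreme fold changes, the groups did not overlap. With library totals alone the last 2 were at -0.077 and -0.063.

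Between the sites, the steady contigs showed no called difference either (edgeR with species in the model, 0 of 200 adjusted and 0 unadjusted). Over all 53478 contigs 0% were called and 9.14% had an unadjusted p under 0.05. DESeq2 called 0 of the 200 and 1200 of all contigs, or 2.24%. Both Rivière Blanche plants were outside the range of the 4 Monts Koghi plants, on the same side, in 37 steady contigs, or 18.5%, with 23 higher and 14 lower. This stood beside 17.2% of all contigs tested and 21% of the other contigs, and the rule used these values too. Site and season cannot be told apart, since both plants of Rivière Blanche were taken in March.

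The contig highest at Rivière Blanche relative to Monts Koghi was Pgab_v2_contig_2259, with 110 and 105 CPM in the plants numbered 2 and 84.6, 89.9, 95.4 and 94.5 CPM in the Monts Koghi plants, the P. gabriellae plants 1 and 3 first. The fitted site difference was 0.22 on the log2 scale (SE 0.23, edgeR adjusted p = 0.804). Pgab_v2_contig_3345 was the lowest, with 223 and 226 CPM against 232, 274, 276 and 249 CPM, or -0.23 on that scale (SE 0.26, edgeR adjusted p = 0.815). In both, the sites did not overlap and the species did.

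**Figure D3:**
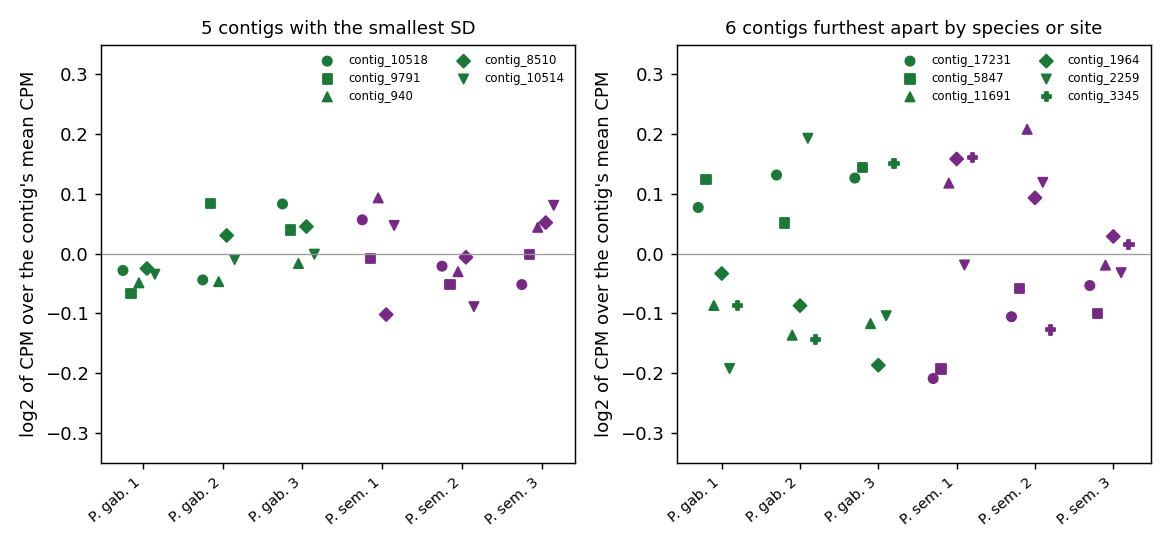
Log2 of CPM over the contig's own mean in each library (P. gab. for P. gabriellae in green, P. sem. for P. semperflorens in purple). The left panel holds the 5 contigs with the smallest SD. The right panel holds those with the 2 largest and 2 smallest fold changes of P. gabriellae over P. semperflorens. It also holds those with the largest and smallest fold change of Rivière Blanche over Monts Koghi. On the left both species scatter around 0, and on the right green and purple symbols separate for Pgab_v2_contig_17231, Pgab_v2_contig_5847, Pgab_v2_contig_11691 and Pgab_v2_contig_1964, which had log2 fold changes of 0.26, 0.25, -0.19 and -0.17.

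Which contigs count as steady depended on how the libraries were scaled. Under the factors of the rule, the median deviation of the steady contigs from their own means was between -0.019 and 0.047 in the 6 libraries. The other contigs, of the same abundance class, deviated by -0.12, 0.11 and -0.17 in P. gabriellae plants 1 to 3 and by 0.14, 0.15 and -0.098 in P. semperflorens plants 1 to 3. The 44335 tested contigs under 20 CPM deviated by -0.059 to 0.047. A flat contig on this scale was therefore not one that followed the bulk of transcripts of its own abundance.

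With TMM factors computed only on contigs of at least 20 CPM, the other contigs came within -0.035 to 0.038 of their means, and the same 200 steady contigs moved to -0.13 to 0.12. Choosing again on this scale gave 68 of the 200, or 34%. With library totals alone it gave 48, or 24%. RLE factors, the scaling of DESeq2, gave 182, TMM after the low-count filter 173 and upper-quartile factors 165. The direction of the species difference followed the scaling as well. Of the 200, 110 were higher in P. gabriellae under the rule, 95 under upper-quartile factors, 173 with TMM on abundant contigs and 185 with library totals.

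**Figure D4:**
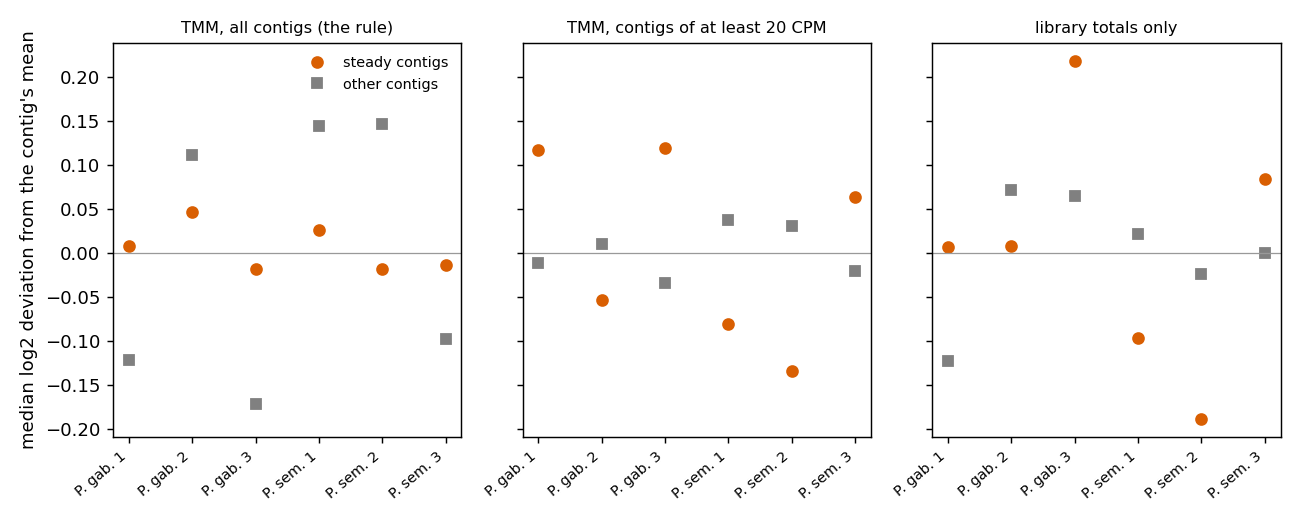
Median log2 deviation of each library from the contig's own mean, for the 200 steady contigs (orange circles) and the 8860 other contigs (grey squares), under 3 scalings of the libraries. The steady contigs lie near 0 in the left panel, where the others reach -0.17 and 0.15. In the middle panel the others lie near 0 and the steady contigs reach -0.13 and 0.12. With library totals the steady contigs reach 0.22 in P. gabriellae plant 3.

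Under all 6 scalings 30 contigs were chosen, and none of the 5 with the smallest SD was among them. These 30 had means of 20.2 to 326 CPM, and the largest SD of each over the scalings was 0.0948 to 0.144. Pgab_v2_contig_1829, named after its values were seen because its largest SD was the smallest, was at 106, 115 and 103 CPM in P. gabriellae and at 115, 117 and 111 CPM in P. semperflorens. Its SD was 0.0550 to 0.0948 over the 6 scalings. Pgab_v2_contig_16764, the scarcest contig described above, came next with 0.0977 to 0.112.

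A ratio of 2 contigs in the same library is free of the scaling factor. Over the 19900 pairs of steady contigs the SD of the log2 ratio was 0.0164 to 0.278, with a median of 0.159. Over all 41037270 pairs of the 9060 contigs the median was 0.669, and 0.618% of these pairs were below the median of the steady pairs. The limit on the SD of each member also limits the SD of their ratios, so these values restate the choice in a form without the factor. When contigs were instead chosen by the mean SD of their ratios to all other contigs of the class, 19 of the 200 were chosen, and the contigs so chosen had a median SD of 0.317 on the rule's scale.

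Spread in libraries that the choice did not use was measured by applying the rule to fewer plants. Chosen on the 3 P. gabriellae plants, 200 contigs had a median SD of 0.0498 there and of 0.219 in the 3 P. semperflorens plants, where the other contigs had 0.328. Of the chosen, 137 of 200, or 68.5%, fell below that median. Chosen on P. semperflorens, the contigs had a median SD of 0.0408 there and of 0.318 in P. gabriellae, where the others had 0.399, and 129 of 200, or 64.5%, fell below it. Contigs steady in 1 species were therefore 1.496 and 1.25 times less variable than others in the other species, far less than the contrast where they were chosen. The lists chosen in each species shared 6 contigs, 3% of each, where each list held 2.23% or 2.24% of the contigs it was chosen from. Among the 200 steady in all 6 plants were 41 and 28 of their contigs, a choice that used the same plants.

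Chosen on the 4 plants of Monts Koghi, the contigs lay at a median distance of 0.255 from the Monts Koghi mean in the plants of Rivière Blanche, against 0.420 for the others. Chosen on 5 plants, they lay at 0.182 to 0.227 in the sixth plant, against 0.291 to 0.409. The distance was smallest for P. semperflorens plant 2 and largest for P. gabriellae plant 2, the plants of Rivière Blanche. The 5-plant lists shared 111 to 128 contigs with the 200, which were chosen on the same 5 plants and the sixth. Contigs and libraries overlap between these choices, so they are given as descriptions without a test.

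**Figure D5:**
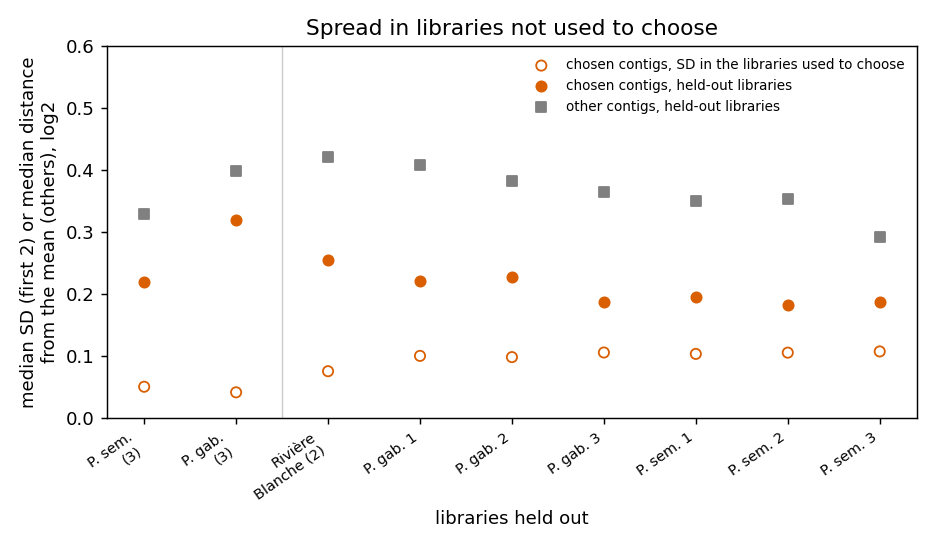
For contigs chosen without the libraries named on the horizontal axis, the median SD in the libraries used to choose (open circles), the median spread of the chosen contigs in the held-out libraries (filled circles) and that of the other contigs there (grey squares), all in log2 units. The spread is an SD for the 2 held-out species and a distance from the mean of the libraries used elsewhere. In all 9 columns the filled circle lies between the open circle and the square, from 0.182 to 0.318. Except for the 2 held-out species, the open circle is an SD and the filled circle a distance. Their heights are unlike measures there.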

How the data were processed

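Leaf polyA RNA of 6 plants was sequenced as paired ends from stranded libraries, per the labels' protocols. The authors deposited whole-number counts of reads, not normalized, for each contig of a P. gabriellae transcriptome assembled de novo from 1 plant. The aligner, counting tool and use of strand were not given in the sources used here. Isoforms, alleles or close paralogs of 1 gene can split reads between contigs.

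CPM used TMM factors on all contigs, a pseudocount of 0.5 and the rule given above. Tests were run in R 4.3.3 with edgeR 4.0.16 (quasi-likelihood, filterByExpr by species, TMM on the contigs kept, Benjamini-Hochberg over all contigs tested), with species as the sole term, or species and site. DESeq2 1.42.0 and limma 3.58.1 were alternatives. The standard error (SE) of a fold change is its absolute value over the root of F. The counting SD is the root of the mean reciprocal count over the natural logarithm of 2. Scripts were tested on simulated data.

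The members and lists were chosen with earlier results of these data known. Contigs were named by rule: the 5 smallest SDs, the 2 highest and lowest means, the 2 largest and smallest species fold changes, the largest and smallest site fold change, and those at the limit. No pair of libraries was alike within counting error, also over the 200 contigs (chi-square per degree of freedom of at least 12.5). Collection day pairs the plants, per the labels. After removal of species means, plants of the same day correlated across contigs at 0.18, -0.067 and 0.20 for October 30, November 4 and March 10.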

Additional observations from a re-analysis of the deposited data

Results flagged for a closer look

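In 42 steady contigs, or 21%, the Rivière Blanche plant lay above both Monts Koghi plants in 1 species and below both in the other, as in 16.3% of the other contigs. The same side in both species was seen in 27.5% of the steady and 35.5% of the other contigs. Of the contigs named, 4 showed opposite sides. Their site difference in P. gabriellae minus that in P. semperflorens was 0.14 on the log2 scale for Pgab_v2_contig_9791, -0.29 for Pgab_v2_contig_2246, -0.17 for Pgab_v2_contig_5847 and -0.19 for Pgab_v2_contig_11691. With 1 plant per species at Rivière Blanche these differences were not tested.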

How the results depend on the processing

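Membership moved more than the values, which are medians of the contigs chosen anew under each setting and so are kept low by the choice. For the same 200 contigs the median SD was 0.119 under the rule. It was 0.148 with TMM on contigs of at least 20 CPM and 0.175 with library totals only. Of the 200 contigs, 48 were chosen again with library totals only, 68 with TMM on contigs of at least 20 CPM, 69 with a minimum of 50 CPM, 19 by ratios to all other contigs, and 110 to 127 with 1 library left out. The ratios, TMM on abundant contigs, the choice on 5 plants and the held-out values with 1 library left out were added after seeing the data. Chosen by ratios, the medians were 0.317 for the SD over 6 libraries, 0.279 in P. gabriellae, 0.223 in P. semperflorens, 0.243 for the species difference and 0.444 for the ratios between members. The cause was not tested. Contigs whose species did not overlap numbered 31 of 200 by ratios (15.5%, against 16.7% of the other contigs), 26 of 200 with TMM on abundant contigs (13% against 19.3%), 44 of 400 with 400 kept (11% against 17%), and 32 to 45 of 200 with 1 library left out (16% to 22.5% against 22.3% to 37.3%), where 3 against 2 plants separate more easily. With 1 library left out the median SD within P. gabriellae was 0.0741 to 0.09998 and that within P. semperflorens 0.0682 to 0.0966. The held-out medians were 0.180 to 0.271 for the P. semperflorens plants and 0.214 to 0.365 for the P. gabriellae plants. For Rivière Blanche they were 0.221 to 0.318. The medians of the other contigs there were 1.18 to 1.49, 1.08 to 1.37 and 1.43 to 1.76 times as large, in the same order. The smallest contrast, 0.365 against 0.395, was for the P. gabriellae plants without P. semperflorens plant 3.

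Over all contigs, the species comparison called 81, 44 without a low-count filter, 35 at 10 reads in each library, 2143 by DESeq2, and 0 with the replicate block, with the collection-day block and with each library left out (0 to 0, with 4739 to 7527 at an unadjusted p under 0.05). The site comparison called 0, and 1200 by DESeq2. No steady contig was called in any of these. The rule chose them for small spread in the same libraries, so nothing is read from that. Plants numbered 1, 2 and 3 correlated at -0.0024, 0.20 and 0.10. Plants of the same day were as mixed, at 0.18, -0.067 and 0.20, so the correlations do not decide how plants pair. By the labels' dates, only the plants numbered 2 were taken on the same day. The replicate block changed no call among the steady contigs, of which none was called without it either. Depth was lowest in P. gabriellae plant 3, which limits the scarcest members to 624 reads.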
